A study of Mus musculus with 22 samples.

Results

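The cytosolic ribosomal proteins build the small and the large subunit of the ribosome that translates nuclear-encoded mRNA. Their probes were chosen by gene symbol alone: every array probe whose single symbol begins with Rpl, Rps or Rplp and a number, leaving out the Rps6k kinases. This gave 57 probes for 57 genes of the 10500 probes on the array, with 20 small-subunit (Rps), 34 large-subunit (Rpl) and 3 stalk (Rplp) members, and 54 of the 57 could be tested.

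The tissue was the anterior neural tube of mouse embryos at the time it closes, and its RNA was measured on 22 one-colour oligonucleotide arrays. Every group, controls included, came from Folr2-/- animals, which lack a folate-binding membrane protein and which the labels also call Folbp2 nullizygous. Arsenic samples came from dams given sodium arsenate intraperitoneally at 9.6 mg arsenic per kg on gestational day (GD) 7 at hour 12 and again on GD8 at hour 12. Control dams were injected at the same times with water, 10 µL per g. Tissue was taken at GD8:15, GD9:00 and GD9:12, 3, 12 and 24 h after the later dose, with 4 arrays per arm at the first stage. The GD9:00 groups had 4 control and 3 arsenic arrays, and those of GD9:12 had 3 control and 4 arsenic arrays. No array of animals with intact Folr2 entered, so what is reported holds for embryos without it. The question, as the labels state it, was what arsenic does to gene expression during neural tube closure.

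Ribosomal proteins are needed in near-equal numbers, because each ribosome holds a single copy of most of them. In growing tissue their mRNAs are among the most abundant, and many of them start with a run of pyrimidines, the 5′ terminal oligopyrimidine (TOP) tract, through which growth signals such as mTOR set their translation. Free ribosomal proteins, above all Rpl5 and Rpl11, can bind Mdm2 and so stabilise p53.

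The starts of 7 genes called between stages are shown first, to let the TOP tract be seen. Each line gives 10 bases before and 20 bases from the start in the RefSeq table (build GRCm38.p6), 5′ to 3′ on the gene's strand. Capitals mark an unbroken run of C and T letters over the first transcribed base, where there is one.
Rpl27a, chr7:109519185-109519214, + strand: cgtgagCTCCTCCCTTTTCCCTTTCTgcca
Rps18, chr17:33955646-33955675, - strand: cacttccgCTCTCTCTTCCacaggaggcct
Rpl31, chr1:39367841-39367870, + strand: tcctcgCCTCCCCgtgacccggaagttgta
Rpl9, chr5:65391412-65391441, - strand: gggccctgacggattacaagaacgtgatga
Rpl11, chr4:136053374-136053403, - strand: ccataaggccacggggccggaagtctccct
Rpl4, chr9:64173377-64173406, + strand: tttcctgtgggagcagccgggtagagagga
Rps27l, chr9:66946076-66946105, + strand: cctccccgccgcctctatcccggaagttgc
Rpl27a, Rps18 and Rpl31 carry a run at the listed start, of 20, 11 and 7 letters, and the other 4 lines do not. For Rps27l the first of 2 listed starts is shown. A run of at least 5 letters lay over the start in 26.4% of the 53 windows of member genes and in 10.1% of all 32851 windows in the table, each 300 bases long. The table held windows for 46 of the 57 genes, and Rps4l and Rpl29, which are described below, were not among them. The letters CCGGAAG, the core that ETS family factors bind, were found on either strand in 37.7% of member windows and 8.86% of all windows, the pyrimidine letters CTTTCC in 47.2% and 26.6%, and the TATA box letters TATAAA in 9.43% and 13.6%. CTTTCC can overlap CCGGAAG in their shared CC, and can lie inside a C and T run. These matches describe the windows, and both probes that rose and probes that fell between stages stand among the genes with a C and T run.

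The arrays as a whole can be described briefly. Deposited intensities ran from 56 to 85027 apart from 838 values of 1 or 2, which were taken as missing. Of 9 neural tube progenitor markers on the array, 8 lay above the median probe, as the labelled tissue would need. Heart and muscle markers, from a neighbouring tissue, averaged 8.01 to 8.91 log2 units per array before GD9:12 and 7.74 to 7.93 at GD9:12 in both arms. The titles carry code numbers whose meaning the labels do not give. By their first 3 digits, 14 arrays form the largest series, which holds all arrays at GD9:00, all but 1 at GD9:12 and 1 control at GD8:15. A further 6 arrays, all at GD8:15, form another series, and 2 controls have codes of their own. A difference between GD8:15 and a later stage is therefore also largely a difference between code series, while the GD9:00 to GD9:12 difference is not. Within GD8:15 all 4 arsenic arrays but only 2 of 4 controls belong to that other series.

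Ribosomal protein probes were among the brightest on the array, and after quantile normalisation their pairwise correlation over arrays was near 0. Of the 54 tested members, 44 lay in the brightest 10% of the 7833 tested probes and 20 among the brightest 50 of all 10500. Rpl15 and Rpl37a, both of the large subunit, held the first and second ranks of mean intensity, at mean log2 intensities of 15.75 and 15.57. The median member stood at 12.83, against 7.87 for all 7833 tested probes. Brightness depends on the probe as well as on the mRNA, so it ranks no gene above another in RNA amount.

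Among the dimmest members were several paralogs. Rpl22l1, a paralog of Rpl22, had a mean log2 intensity of 7.23, Rpl39l, a paralog with high expression in testis, 7.96, and Rps4l, a paralog of Rps4x, 8.60. Rpl29, a general large-subunit protein, was dim as well at 7.75. Rpl3l, the muscle form of Rpl3, lay at percentile 6.74 of all probes and was not tested. Its 22 values ran from 6.88 to 7.19, and group means lay between 6.94 and 7.13. Another paralog, Rps27l, which is a p53 target, was bright, with a mean of 12.25.

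Both other untested members lacked values rather than signal. Rps28 and Rpl21 held the placeholder on exactly the 14 arrays of the largest code series and a real value on the other 8. In the GD8:15 controls Rps28 read 15.15, 15.18 and 15.06, and in the arsenic arrays 14.72, 14.59, 14.58 and 15.75. The single value at GD9:12 was 14.72. Rpl21 read 10.74, 11.09 and 10.50 in those controls, 12.33, 11.50, 9.49 and 10.59 in the arsenic arrays, and 10.32 at GD9:12. Both arms overlapped for each gene, and no stage comparison could be made.

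The spread between arrays of a group was wide for most members. The median standard deviation (SD) within groups was 0.52 log2 units for the 54 members, 0.55 for 740 other probes of the brightest 10%, and 0.27 for all tested probes. It was lowest for the dim Rpl22l1 (0.15) and Rpl29 (0.15) and for the brightest probes Rpl15 (0.24) and Rpl37a (0.25), followed by Rpl23 (0.28). Quantile normalisation gives every array nearly the same highest values, which leaves the brightest probes little room to rise. On some arrays several bright members also share a deposited value, or nearly so. On the second GD9:12 control Rpl10a, Rpl37a, Rpl5 and Rpl7 read 47817, and Rpl15 and Rpl37 read 47818. On the second GD9:12 arsenic array Rpl10a, Rpl15, Rpl37, Rpl5 and Rpl7 read 44457. The part of this in their spread was not tested. The widest spread belonged to Rps3 (1.23), Rps15 (1.17), Rps19 (1.00), Rplp0 (0.98) and Rpl30 (0.95), where single arrays lay far from the rest of their group. Rps3, which forms part of the mRNA entry channel, read 12.18, 11.88, 8.11 and 12.20 in controls and 12.07, 12.01, 10.66 and 10.72 in arsenic arrays at GD8:15.

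**Figure D1:**
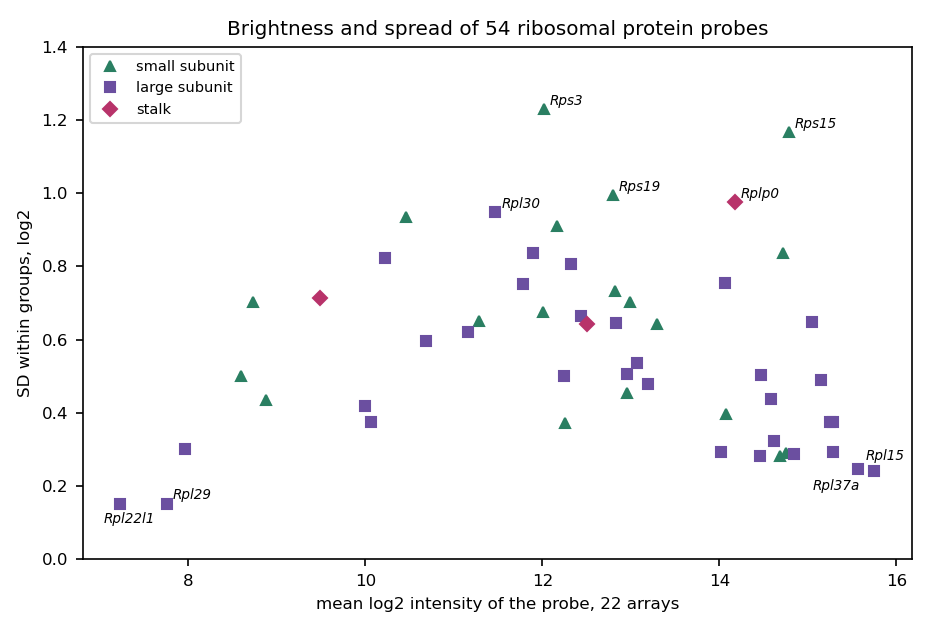
Mean log2 intensity over 22 arrays (horizontal) against the SD within groups in log2 units (vertical) for 54 ribosomal protein probes, with triangles for the small subunit, squares for the large subunit and diamonds for the stalk. The dimmest (Rpl22l1, Rpl29) and the brightest probes (Rpl15, Rpl37a) have an SD of 0.15 to 0.25, while Rps3 and Rps15 reach 1.23 and 1.17.

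How far members of one ribosome shared a profile across arrays depended on the scaling. With quantile normalisation, which removes a shift common to the brightest probes, the median correlation between member pairs over the 22 arrays was 0.037, over 1431 pairs, against 0.0073 for pairs among the other bright probes. With group means removed it was 0.12. Under the authors' scaling the medians were 0.29 for members and 0.48 for the other bright probes, and with arrays centred on their medians 0.36 and 0.46. These pairs share arrays and normalisation, and the values are descriptions. With quantile normalisation the closest pairs were Rpl27a with Rpl9 (r = 0.94), Rpl27a with Rps4l (0.83), Rps4l with Rpl9 (0.82) and Rpl27a with Rps18 (0.82), and these 4 genes reappear in the stage comparison. With group means removed Rpl27a and Rpl9 still had r = 0.69, while Rpl27a and Rps18 had 0.29. Rpl3 and Rpl14 (0.80, and 0.77 without group means) and Rps19 and Rps27 (0.80 and 0.86) varied together within groups. Rps19 and Rps27 both read far below the rest of their group on the second GD9:00 control (10.29 and 12.64). They did so again on the first GD9:12 control (10.63 and 12.83), and the part of these arrays in the correlation was not tested. Rpl37a and Rps27l lay at the other end, with r = -0.72. The non-member probes nearest to the member median across the 22 arrays were Mrps16 (r = 0.82), which encodes a mitochondrial ribosomal protein, Rars (0.82), which charges arginine tRNA, Psma3 (0.79), a proteasome subunit, Pdlim7 (0.78) and Npepps (0.77).

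The level of the class per array also rests on the scaling, because quantile normalisation holds the brightest probes nearly fixed. The level ranged over 0.621 log2 units across arrays with it, 1.43 with the scaling of the authors and 2.07 with centred arrays. The values that follow are those after quantile normalisation. Each member's deviation from its own 22-array mean was taken, and the median over members ran from -0.31 on the arsenic GD8:15 array 3 to 0.31 on the control GD9:00 array 1. By group, this median averaged -0.026 ± 0.081 (SD, n = 4) in GD8:15 controls and -0.016 ± 0.25 (SD, n = 4) with arsenic. It was 0.18 ± 0.098 (SD, n = 4) and 0.12 ± 0.15 (SD, n = 3) at GD9:00, and -0.021 ± 0.094 (SD, n = 3) and -0.091 ± 0.18 (SD, n = 4) at GD9:12. Control and arsenic arrays overlapped at each stage. The other bright probes did not overlap at GD8:15, at 0.032 to 0.076 in controls and -0.27 to -0.012 in arsenic arrays. On the lowest array the other bright probes were low too, at -0.27. Small-subunit probes averaged -0.27 ± 0.10 (SD, n = 4) in GD8:15 controls and 0.31 ± 0.25 (SD, n = 4) in GD9:00 controls, without overlap, while large-subunit probes averaged 0.026 and 0.15, with overlap.

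**Figure D2:**
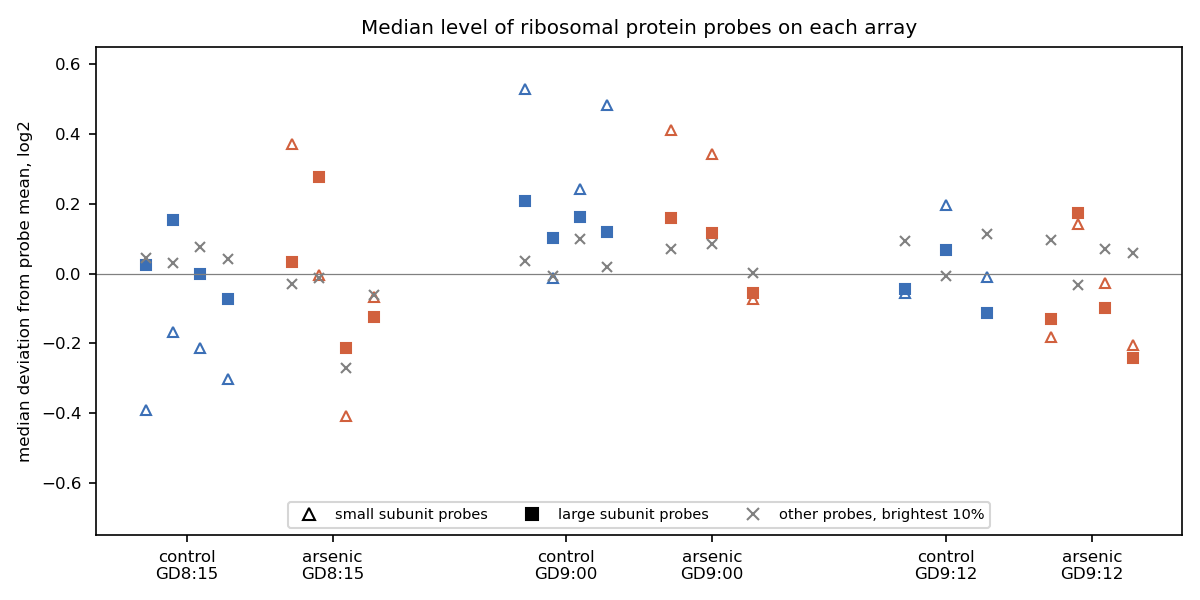
Median deviation from the 22-array mean of each probe (log2 units, vertical) on every array, by group, for small-subunit probes (open triangles), large-subunit probes (filled squares) and the 740 other probes of the brightest 10% (grey crosses); control arrays are blue and arsenic arrays orange. Small- and large-subunit points of the 2 arms overlap at each stage, and the arsenic GD8:15 array 3 is low in all 3 classes.

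Arsenic against water was tested at each stage, and no ribosomal protein passed. The test was a limma linear model on quantile-normalised log2 intensities with Benjamini-Hochberg adjustment over all tested probes, and 0 of 54 members had an adjusted p under 0.05 at any stage or on average over stages. The background was the same, with 0 of 7833 probes called (0%) at each stage, so the result is not particular to ribosomal proteins. The labels do not say which arrays share a dam, so a p-value here reflects only how these arrays vary, which may be partly technical. Bulk RNA does not tell fewer cells of a type from less RNA per cell. At GD9:00 all 10 heart and muscle markers tested were higher in arsenic arrays (median difference 0.33, none called), and their part in the GD9:00 values was not tested.

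The median member difference between arms was close to 0 at every stage. It was 0.043, 0.044 and -0.0013 in stage order, beside medians over all tested probes of 0.00050, 0.0060 and -0.013. At GD8:15 30 of 54 members were higher in arsenic arrays, at GD9:00 29 and at GD9:12 27. At an unadjusted p under 0.05 there were 6 members at GD8:15 (11.1%, against 7.29% of all tested probes), 5 at GD9:00 (9.26%, against 12.6%) and 3 at GD9:12 (5.56%, against 1.28%). Bright probes in general differ more between arrays, and 10.1%, 10.3% and 1.49% of the other brightest probes reached that level. The median standard error (SE) of a member difference was 0.35 at GD8:15 and 0.38 later, which is as large as most of the differences.

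**Figure D3:**
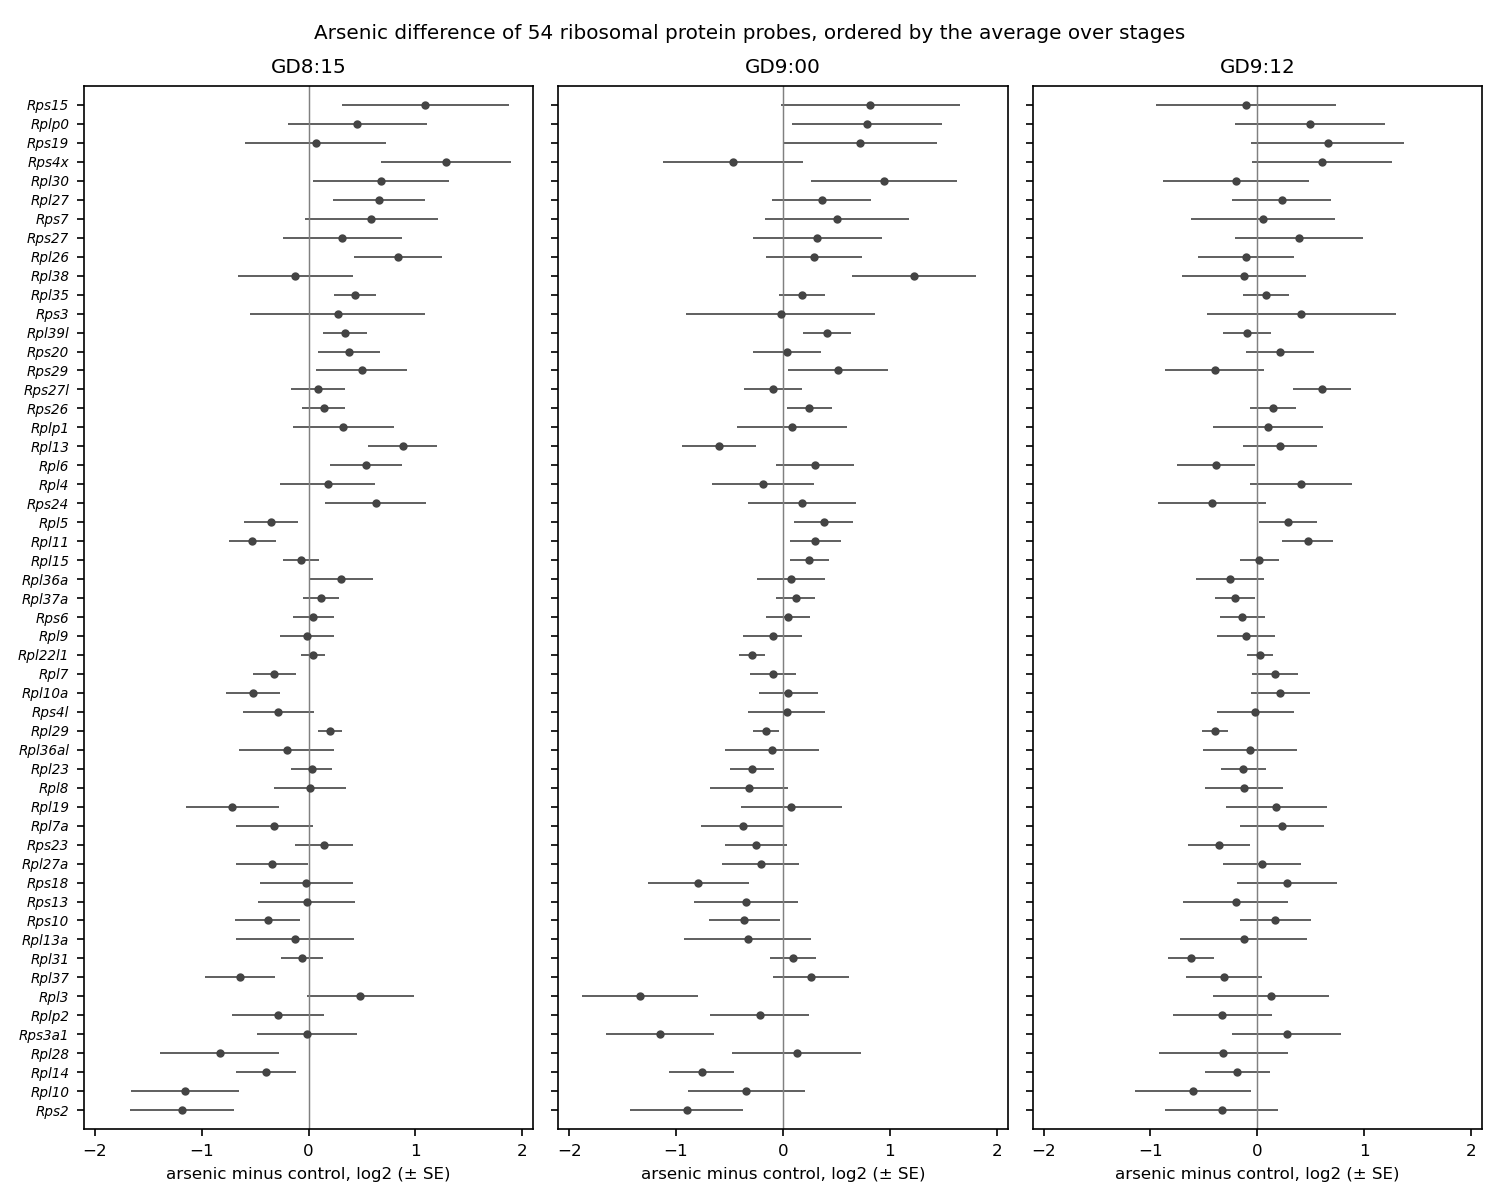
Difference arsenic minus control in log2 units (horizontal, points with SE bars) for 54 ribosomal protein probes at GD8:15, GD9:00 and GD9:12, ordered from top to bottom by the average over stages. Points lie on both sides of 0 at each stage, and their range narrows from -1.18 to 1.29 at GD8:15 to -0.62 to 0.66 at GD9:12.

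At the earliest stage, GD8:15, the lowest p belonged to Rpl13, a large-subunit protein. Rpl13 read 12.40, 13.48, 12.94 and 13.35 in controls and 14.56, 14.42, 12.90 and 13.81 in arsenic arrays. Of the arsenic arrays, 3 lay above every control and 1 was within the control range. The difference was 0.88 ± 0.32 (SE), with limma adjusted p = 0.575. At GD9:00 the difference had the other sign, -0.60 ± 0.35 (SE) (limma adjusted p = 0.495).

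Rps2, a small-subunit protein near the mRNA entry, read 14.28, 12.66, 14.76 and 12.49 in controls and 12.34, 12.53, 11.57 and 13.03 in arsenic arrays at GD8:15. Of the controls, 2 lay above all arsenic arrays and 2 within their range. Its difference was -1.18 ± 0.49 (SE) there, -0.90 ± 0.53 (SE) at GD9:00 and -0.33 ± 0.53 (SE) at GD9:12. The 2 higher controls are the ones outside the code series of the arsenic arrays. With the code series as a block the GD8:15 difference was -0.21 and the average over stages -0.32 (limma adjusted p = 1 for both). On average over stages, without the block, Rps2 had the lowest p of all members, -0.81 ± 0.30 (SE) (limma unadjusted p = 0.0143, adjusted p = 0.865).

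Rpl10, which completes the large subunit in its last assembly step, read 14.01, 15.57, 15.27 and 13.70 in controls and 13.78, 13.71, 12.35 and 14.10 in arsenic arrays at GD8:15. The arsenic arrays were low but overlapped the lower controls. Differences were -1.15 ± 0.50 (SE), -0.34 ± 0.54 (SE) and -0.60 ± 0.54 (SE) at the 3 stages, with limma adjusted p = 0.629, 0.825 and 1. Rpl35, at the exit of the peptide tunnel, differed by 0.44 ± 0.20 (SE) at GD8:15, with limma adjusted p = 0.646.

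Rps4x is encoded on the X chromosome, and its values are given beside those of Xist, the RNA that silences an X chromosome in female cells. Rps4x read 12.24, 12.85, 9.67 and 12.73 in controls and 13.72, 12.96, 12.45 and 13.50 in arsenic arrays at GD8:15, a difference of 1.29 ± 0.61 (SE) (limma adjusted p = 0.679). The third control at 9.67 lay far below the other 3, and without it the difference was 0.55. Xist ran from 7.02 to 7.10 in those controls and from 7.86 to 9.06 in the arsenic arrays. At GD9:00 Xist again ran higher in the arsenic arrays, 9.77 to 10.35 against 7.10 to 8.71, and Rps4x differed by -0.47 ± 0.65 (SE). At GD9:12 Xist was not higher with arsenic, at 6.93 to 7.15 against 6.88 to 11.34, and Rps4x differed by 0.61 ± 0.65 (SE). The part of embryo sex in the Rps4x values was not tested.

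At GD8:15 no member had groups without overlap, where 3.84% of all tested probes did (1.91% higher and 1.93% lower). The members with the next lowest p, Rpl11 (-0.53 ± 0.22 (SE)), Rpl10a (-0.52 ± 0.25 (SE)) and Rpl37 (-0.64 ± 0.33 (SE)), all of the large subunit, had lower arsenic means, and Rpl26 (0.84 ± 0.41 (SE)), at the tunnel exit, a higher one. With the code series as a block, which leaves 2 controls to set against the 4 arsenic arrays, the GD8:15 differences were 0.51 for Rpl13, 0.37 for Rps4x, 0.41 for Rpl35, -0.41 for Rpl11 and -1.15 for Rpl10 (limma adjusted p = 1 for each).

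In the GD9:00 samples the groups did not overlap for 5 of 54 members, against a background of 9.64% of all probes. In arsenic arrays 1 was higher, where 2.41% of all probes were, and 4 lower, where 7.23% were. Rpl3, which reaches the peptidyl transferase centre, read 12.96, 11.77, 11.73 and 12.09 in controls and 11.65, 11.67 and 9.09 in arsenic arrays. Rpl14, a large-subunit protein, read 10.25, 10.07, 10.26 and 9.98 in controls and 9.78, 9.80 and 8.56 in arsenic arrays. In both, the third arsenic array was the lowest by a wide margin.

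That array weighed on both differences. They were -1.34 ± 0.54 (SE) for Rpl3 and -0.76 ± 0.31 (SE) for Rpl14 (limma adjusted p = 0.349 and 0.344). Without the third arsenic array they were -0.48 and -0.35. Rps3a1, a small-subunit protein, differed by -1.15 ± 0.51 (SE), and by -0.50 without it. Rpl22l1 differed by -0.29 ± 0.12 (SE) and Rps2 by -0.90 ± 0.53 (SE), both without overlap.

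Rpl38, a large-subunit protein whose loss in mice disturbs axial patterning, was the single member with all arsenic arrays above all controls at GD9:00. Rpl38 read 9.17, 12.13, 11.83 and 11.86 in controls and 12.50, 12.56 and 12.38 in arsenic arrays. The first control, at 9.17, lay far below the other 3, which came close to the arsenic arrays. The difference was 1.23 ± 0.58 (SE) (limma adjusted p = 0.392), and 0.54 without that control.

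In the GD9:12 samples, 24 h from the later dose, 4 members had groups without overlap. Of these 2 were higher, against 2.17% of all probes, and 2 lower, against 2.83%, or 5% together. Rpl29 read 8.14, 8.56 and 8.20 in controls and 7.89, 8.08, 7.90 and 7.76 in arsenic arrays. All arsenic arrays lay below all controls, by 0.39 ± 0.12 (SE) on average (limma unadjusted p = 0.00444, adjusted p = 1). Its difference at GD8:15 had the other sign, 0.20 ± 0.11 (SE). Rps27l read 12.32, 12.45 and 12.24 in controls and 12.87, 13.30, 12.93 and 12.66 in arsenic arrays. Here all arsenic arrays were the higher ones, with a difference of 0.60 ± 0.27 (SE) (limma unadjusted p = 0.0393, adjusted p = 1).

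Rpl31, at the tunnel exit, differed by -0.62 ± 0.22 (SE) at GD9:12, with groups that overlapped (limma adjusted p = 1). Rpl11 (0.47 ± 0.24 (SE)) was higher and Rpl36a (-0.26 ± 0.32 (SE)) lower in arsenic arrays without overlap. Of the Mdm2-binding pair, Rpl5 differed by -0.35 ± 0.25 (SE), 0.38 ± 0.27 (SE) and 0.29 ± 0.27 (SE) at the 3 stages, and Rpl11 by -0.53 ± 0.22 (SE), 0.30 ± 0.24 (SE) and 0.47 ± 0.24 (SE). With quantile normalisation both were thus lower in arsenic arrays at GD8:15 and higher afterwards, with no adjusted p under 0.05. At GD9:00 the first control read 14.17 for Rpl5 and the others 15.50, 15.64 and 15.38, beside 15.57, 15.64 and 15.44 in arsenic arrays. The Rpl5 difference at GD9:00 was -0.144 with centred arrays.

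The 3 stalk proteins, Rplp0, Rplp1 and Rplp2, recruit elongation factors to the ribosome. Their arsenic differences averaged over stages were 0.58 ± 0.40 (SE), 0.17 ± 0.29 (SE) and -0.28 ± 0.26 (SE), with 95% intervals of -0.25 to 1.41, -0.44 to 0.78 and -0.83 to 0.27, which all include 0. Rplp0, widely used as a reference gene in PCR, read 15.32, 13.76, 13.51 and 13.79 in controls and 12.91, 15.50, 15.75 and 14.05 in arsenic arrays at GD8:15, with arsenic arrays both above and below the controls. Higher on average in arsenic arrays were also Rpl27 (0.41 ± 0.26 (SE)) and Rps26 (0.18 ± 0.12 (SE)), though not past the test (limma adjusted p = 0.877 and 0.877). Of the paralogs, Rpl39l differed by 0.22 ± 0.13 (SE) and Rps4l by -0.089 ± 0.20 (SE). The 19 small-subunit members had a median difference over stages of 0.18 and the 32 large-subunit members of -0.080, which is a description and was not tested. The test for an arsenic effect that changes with stage, a limma F test, called 0 of 54 members and 0 of 7833 probes.

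Genes that work with the ribosomal proteins did not pass either. Listed with the members were 30 tested genes of ribosome biogenesis, 16 of translation elongation and other TOP mRNAs, 14 that control translation for growth, 8 of the p53 pathway in general, 50 mitochondrial ribosomal proteins and 2 further partners. None of them was called for arsenic at any stage by limma with Benjamini-Hochberg adjustment. At GD9:00 13 of 30 biogenesis genes and 15 of 50 mitochondrial ribosomal proteins were higher in arsenic arrays, with median differences of -0.13 and -0.15. Of the 14 growth control genes 10 were higher there (median 0.21), with Eif4ebp1 at 1.25 and Ddit4 at 0.70 (limma adjusted p = 0.366 and 0.262). Eif4ebp1 also differed by 1.12 at GD8:15 (limma adjusted p = 0.646). The p53 list, which holds Mdm4, Cdkn1a, Gadd45a and 5 further genes but not Mdm2, had medians of 0.13, 0.21 and 0.25 at the 3 stages, with 6, 5 and 6 of 8 genes higher. At GD9:00 Cdkn1a differed by 1.27 ± 0.26 (SE), Phlda3 by 1.73 ± 0.60 (SE) and Ccng1 by 1.44 ± 0.58 (SE) (limma adjusted p = 0.147, 0.288 and 0.344). No tested probe had a lower adjusted p at that stage than Cdkn1a. On average over stages Cdkn1a differed by 0.67 ± 0.15 (SE) (limma adjusted p = 0.591). The part of free ribosomal proteins in the values of the p53 list was not tested.

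Between stages, single ribosomal proteins did change. From GD9:00 to GD9:12 Rpl27a, Rpl9 and Rps18 fell in both arms, by 2.84-fold to 9.57-fold, and against GD8:15 these 3 and Rps4l fell in both. Rpl29 rose in controls and Rps27l in arsenic arrays. With quantile normalisation at most 8 of 54 members were called in any stage comparison, and many of the calls depend on that scaling or on the code series, as given below. The scaling of the authors gave 28 calls in controls and 22 in arsenic arrays from GD9:00 to GD9:12. That scaling sets the mean intensity of an array to 500 at GD9:00 and to 1000 at GD9:12. These counts are given without the share of all probes called under it, so they are not results about ribosomal proteins as a class.

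Between GD8:15 and GD9:12, 7 of 54 members were called in controls (13%), where 7.71% of all tested probes were. Of these 2 were higher and 5 lower, against 3.77% and 3.94% of all probes. In arsenic arrays 6 were called (11.1%, against 13.8%), 1 higher and 5 lower, where the background was 7.23% and 6.59%. Of the other brightest probes, 10.7% and 20% were called in the 2 arms. From GD9:00 to GD9:12, 8 members were called in controls (14.8%, against 11.3%), 1 higher and 7 lower, with 3.83% and 7.44% of all probes. In arsenic arrays 5 were called (9.26%, against 3.88%), 1 higher and 4 lower, with 1.9% and 1.98% of all probes. The other brightest probes had 13.6% and 4.73% called there. From GD8:15 to GD9:00, 7 were called in controls (13%, against 15%), 4 higher and 3 lower, with 8.16% and 6.83% of all probes. In arsenic arrays 3 were called (5.56%, against 4.21%), 2 higher and 1 lower, with 2.4% and 1.81% of all probes. Of the other brightest probes 14.2% and 4.46% were called there. Single arrays weigh on these counts. Without the first GD8:15 control the 7 calls from GD8:15 to GD9:00 became 0, and without the second GD9:12 control the 8 calls from GD9:00 to GD9:12 became 4. In arsenic arrays, the 3 calls from GD8:15 to GD9:00 became 0 without the first or the second GD9:00 array, and the 5 calls from GD9:00 to GD9:12 became 2 without the second GD9:00 or the fourth GD9:12 array. Shares near the background are not results about ribosomal proteins as a class. The median member change between GD8:15 and GD9:12 was 0.032 in controls and -0.10 in arsenic arrays, beside -0.013 and -0.036 for all probes. Groups did not overlap for 10 members higher and 10 lower in controls and for 3 higher and 7 lower in arsenic arrays in that comparison, where 31.2% of all probes (14.1% higher, 17.1% lower) and 20.4% (9.75% and 10.6%) did not.

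Rpl27a had log2 intensities of 13.52, 12.96, 13.03 and 12.82 in controls and 12.96, 13.42, 11.59 and 12.98 in arsenic arrays at GD8:15. At GD9:00, Rpl27a read 13.32, 13.11, 12.90 and 12.75 in controls and 13.21, 13.21 and 12.02 in arsenic arrays. By GD9:12, Rpl27a stood at 10.58, 11.17 and 10.60 in controls and 10.60, 11.30, 11.00 and 10.38 in arsenic arrays. The GD9:12 arrays of both arms were all below every earlier array. Rpl27a, a large-subunit protein, fell from GD9:00 to GD9:12 by 2.24 ± 0.36 (SE) in controls, 4.73-fold, and by 1.99 ± 0.36 (SE) in arsenic arrays, 3.97-fold (limma adjusted p = 0.000911 and 0.00491). Against GD8:15 it fell by 2.30 ± 0.36 (SE) and 1.92 ± 0.34 (SE) (limma adjusted p = 0.00101 and 0.00114).

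Rpl9 had log2 intensities of 10.76, 10.75, 10.84 and 10.40 in controls and 10.75, 10.86, 10.31 and 10.77 in arsenic arrays at GD8:15. At GD9:00, Rpl9 read 10.53, 10.53, 10.41 and 10.60 in controls and 10.52, 11.09 and 9.65 in arsenic arrays. By GD9:12, Rpl9 stood at 9.39, 9.04 and 8.61 in controls and 8.95, 9.35, 9.02 and 8.31 in arsenic arrays. Again no GD9:12 array reached the lowest earlier value, which was an arsenic GD9:00 array at 9.65. Rpl9, also of the large subunit, fell from GD9:00 by 1.50 ± 0.27 (SE) in controls and 1.51 ± 0.27 (SE) in arsenic arrays (limma adjusted p = 0.0021 and 0.00491). From GD8:15 it fell by 1.67 ± 0.27 (SE) and 1.77 ± 0.25 (SE), 3.19-fold and 3.4-fold (limma adjusted p = 0.00125 and 0.000277).

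Rps18 had log2 intensities of 10.37, 11.40, 12.39 and 12.11 in controls and 11.51, 11.65, 10.90 and 12.13 in arsenic arrays at GD8:15. At GD9:00, Rps18 read 11.79, 13.79, 12.82 and 12.98 in controls and 12.37, 12.43 and 11.37 in arsenic arrays. By GD9:12, Rps18 stood at 9.31, 10.09 and 9.36 in controls and 9.93, 10.06, 10.17 and 9.30 in arsenic arrays. The controls were highest on average at GD9:00 and lowest at GD9:12, with no overlap between these stages in either arm. Rps18 belongs to the small-subunit head that contacts the large subunit. From GD9:00 to GD9:12 it fell by 3.26 ± 0.47 (SE) in controls, 9.57-fold, and by 2.19 ± 0.47 (SE) in arsenic arrays, 4.56-fold (limma adjusted p = 0.000396 and 0.0144). It was the largest fall among members in both arms. Against GD8:15 the falls were 1.98 ± 0.47 (SE) and 1.68 ± 0.43 (SE) (limma adjusted p = 0.0143 and 0.0152).

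Rps4l had log2 intensities of 9.52, 9.67, 9.59 and 9.30 in controls and 9.71, 9.36, 8.01 and 9.87 in arsenic arrays at GD8:15. At GD9:00, Rps4l read 9.33, 7.66, 9.05 and 8.58 in controls and 8.77, 8.68 and 8.62 in arsenic arrays. By GD9:12, Rps4l stood at 7.81, 7.60 and 7.50 in controls and 7.55, 7.80, 7.71 and 7.42 in arsenic arrays. Within each arm every GD9:12 array lay below every GD8:15 array. Rps4l fell between those stages by 1.88 ± 0.36 (SE) in controls and 1.62 ± 0.34 (SE) in arsenic arrays (limma adjusted p = 0.00362 and 0.00367). From GD9:00 its differences were -1.02 ± 0.36 (SE) and -1.07 ± 0.36 (SE), which did not pass (limma adjusted p = 0.0775 and 0.117). The X-linked Rps4x fell from GD9:00 to GD9:12 in controls by 2.20 ± 0.65 (SE) (limma adjusted p = 0.0362) and differed by -1.13 ± 0.65 (SE) in arsenic arrays (limma adjusted p = 0.436). The genes are close paralogs, so whether their probes share signal is uncertain.

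Rpl11 had log2 intensities of 15.03, 14.89, 14.98 and 14.68 in controls and 14.93, 14.80, 13.72 and 14.03 in arsenic arrays at GD8:15. At GD9:00, Rpl11 read 14.53, 15.38, 15.15 and 15.06 in controls and 15.18, 15.44 and 15.38 in arsenic arrays. By GD9:12, Rpl11 stood at 13.77, 13.77 and 13.81 in controls and 14.23, 14.51, 14.31 and 13.97 in arsenic arrays. The 3 GD9:12 controls lay close together and below all earlier controls. Rpl11 fell from GD9:00 to GD9:12 by 1.25 ± 0.24 (SE) in controls and 1.08 ± 0.24 (SE) in arsenic arrays (limma adjusted p = 0.00278 and 0.0167). Against GD8:15 it fell by 1.11 ± 0.24 (SE) in controls (limma adjusted p = 0.00707), while in arsenic arrays, where 2 of 4 GD8:15 values were already low, the difference was -0.11 ± 0.22 (SE) (limma adjusted p = 0.769). With the scaling of the authors the changes from GD9:00 were -0.16 and -0.048 (limma adjusted p = 0.623 and 0.934), and with centred arrays -0.87 and -0.31 (limma adjusted p = 0.17 and 0.679), so none of these calls held. The control difference against GD8:15 was likewise -0.19 (limma adjusted p = 0.775) and -0.39 (limma adjusted p = 0.582). For the difference between these changes limma gave an adjusted p of 1.

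Rpl13, Rpl4 and Rps4x completed the members that fell from GD9:00 to GD9:12 in controls. Rpl13 fell by 1.29 ± 0.35 (SE) and Rpl4, which lines the peptide tunnel, by 1.55 ± 0.48 (SE) (limma adjusted p = 0.0228 and 0.0427). In arsenic arrays the differences were -0.48 ± 0.35 (SE) and -0.96 ± 0.48 (SE) (limma adjusted p = 0.579 and 0.329). Rpl13 did fall in arsenic arrays against GD8:15, by 1.27 ± 0.32 (SE) (limma adjusted p = 0.0139), from a GD8:15 level that was above that of the controls. With the scaling of the authors the control changes from GD9:00 were -0.15 (limma adjusted p = 0.721) for Rpl13, -0.43 (limma adjusted p = 0.422) for Rpl4 and -1.04 (limma adjusted p = 0.12) for Rps4x, and none passed with centred arrays either. The arsenic difference of Rpl13 against GD8:15 was -0.065 (limma adjusted p = 0.94) with that scaling and -0.064 (limma adjusted p = 0.935) with centred arrays.

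Rpl29 had log2 intensities of 7.52, 7.58, 7.45 and 7.22 in controls and 7.76, 7.82, 7.58 and 7.42 in arsenic arrays at GD8:15. At GD9:00, Rpl29 read 7.87, 7.70, 7.75 and 7.64 in controls and 7.67, 7.53 and 7.53 in arsenic arrays. By GD9:12, Rpl29 stood at 8.14, 8.56 and 8.20 in controls and 7.89, 8.08, 7.90 and 7.76 in arsenic arrays. In controls the 3 stages did not overlap and each was above the one before. Rpl29 rose in controls by 0.86 ± 0.12 (SE) from GD8:15 and by 0.56 ± 0.12 (SE) from GD9:00 (limma adjusted p = 0.000461 and 0.00681). In arsenic arrays the differences were 0.26 ± 0.11 (SE) and 0.33 ± 0.12 (SE) (limma adjusted p = 0.123 and 0.164). The difference between the arms in the change from GD8:15 was -0.59 and was not called (limma adjusted p = 0.784).

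Rpl31 had log2 intensities of 13.49, 13.87, 13.63 and 13.56 in controls and 13.59, 13.83, 13.56 and 13.33 in arsenic arrays at GD8:15. At GD9:00, Rpl31 read 14.64, 14.15, 14.35 and 14.10 in controls and 14.35, 14.72 and 14.15 in arsenic arrays. By GD9:12, Rpl31 stood at 14.21, 14.89 and 14.42 in controls and 13.66, 14.15, 13.38 and 14.33 in arsenic arrays. Every array at GD9:00 was above every array at GD8:15. Rpl31 rose from GD8:15 to GD9:00 by 0.67 ± 0.20 (SE) in controls and 0.83 ± 0.22 (SE) in arsenic arrays (limma adjusted p = 0.0312 and 0.035). At GD9:12 it was still higher than at GD8:15 in controls, by 0.86 ± 0.22 (SE) (limma adjusted p = 0.0191), and by 0.30 ± 0.20 (SE) in arsenic arrays, which did not pass (limma adjusted p = 0.331).

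Rps27l had log2 intensities of 11.13, 11.91, 11.93 and 11.58 in controls and 11.58, 11.78, 11.84 and 11.72 in arsenic arrays at GD8:15. At GD9:00, Rps27l read 12.53, 11.98, 12.39 and 13.15 in controls and 12.46, 13.03 and 11.76 in arsenic arrays. By GD9:12, Rps27l stood at 12.32, 12.45 and 12.24 in controls and 12.87, 13.30, 12.93 and 12.66 in arsenic arrays. All later arrays but 1 lay above the GD8:15 arrays of their arm. Rps27l rose in arsenic arrays between GD8:15 and GD9:12 by 1.21 ± 0.25 (SE), 2.32-fold, and in controls between GD8:15 and GD9:00 by 0.88 ± 0.25 (SE) (limma adjusted p = 0.0038 and 0.0256). The control difference between GD8:15 and GD9:12 was 0.70 ± 0.27 (SE) (limma adjusted p = 0.135).

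**Figure D4:**
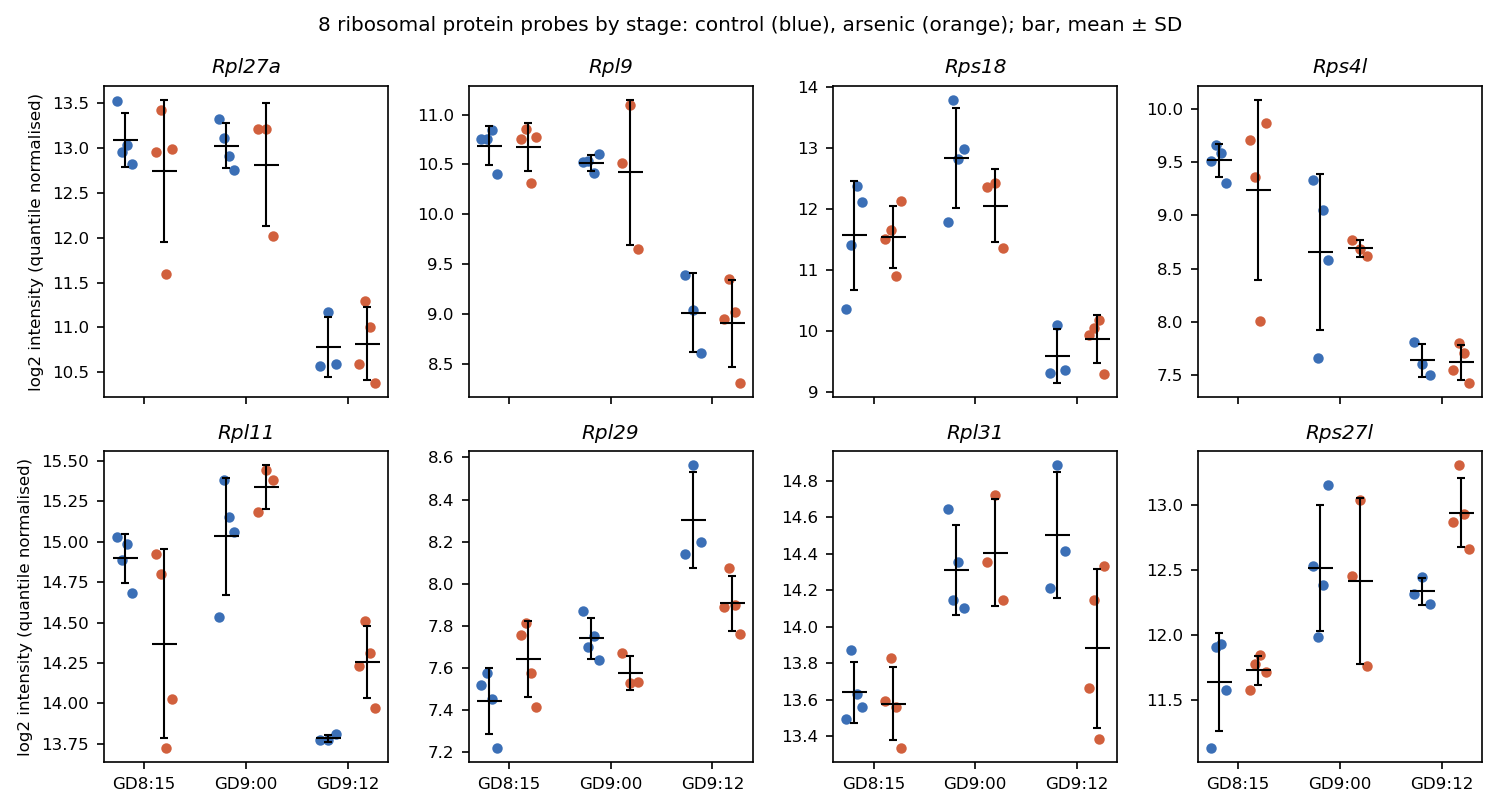
Log2 intensity after quantile normalisation (vertical, a separate scale for each probe) of 8 ribosomal protein probes on every array, at GD8:15, GD9:00 and GD9:12, with controls in blue and arsenic arrays in orange; bars give the mean and SD. Rpl27a, Rpl9, Rps18 and Rps4l are lowest at GD9:12 in both arms, and Rpl29 is highest in the GD9:12 controls (8.14 to 8.56).

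Rpl8, a large-subunit protein near the peptidyl transferase centre, dipped at GD9:00 in both arms. Rpl8 had log2 intensities of 13.95, 13.44, 13.18 and 12.76 in controls and 13.36, 13.87, 13.37 and 12.79 in arsenic arrays at GD8:15. At GD9:00, Rpl8 read 12.39, 12.07, 12.55 and 12.06 in controls and 12.30, 12.38 and 11.18 in arsenic arrays. By GD9:12, Rpl8 stood at 13.39, 13.81 and 13.03 in controls and 13.03, 14.23, 12.65 and 13.24 in arsenic arrays. The GD9:00 arrays were the lowest within each arm. Rpl8 fell from GD8:15 by 1.07 ± 0.34 (SE) in controls and 1.39 ± 0.37 (SE) in arsenic arrays (limma adjusted p = 0.0412 and 0.0355). It rose again by GD9:12 in arsenic arrays, by 1.34 ± 0.37 (SE) (limma adjusted p = 0.0483), and the control difference of 1.14 ± 0.37 (SE) lay at the threshold (limma adjusted p = 0.051).

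The other members called between GD8:15 and GD9:00 did so in a single arm. In controls Rps23, of the decoding centre, rose by 0.97 ± 0.27 (SE) and Rps3a1 by 1.48 ± 0.47 (SE), while Rpl28 fell by 1.97 ± 0.56 (SE) and Rps26, at the mRNA exit, by 0.64 ± 0.20 (SE) (limma adjusted p = 0.0213, 0.0406, 0.0237 and 0.0359). In arsenic arrays Rpl11 rose by 0.97 ± 0.24 (SE) (limma adjusted p = 0.0261). Of the members next in p between GD8:15 and GD9:12, the small-subunit protein Rps20 differed by 0.88 ± 0.32 (SE) in controls and 0.71 ± 0.29 (SE) in arsenic arrays, and Rpl36a, at the exit site of the large subunit, by 0.84 ± 0.32 (SE) in controls, none of which passed (limma adjusted p = 0.102, 0.112 and 0.125). The stalk proteins were lower at GD9:12 than at GD8:15 in both arms, by 0.35 to 1.10 log2 units, with no call. The largest difference was that of Rplp2, at -1.05 ± 0.46 (SE) in controls and -1.10 ± 0.43 (SE) in arsenic arrays.

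The stage changes of the 2 arms, which share no array, could be set side by side. Across the 54 members the control and the arsenic change correlated with r = 0.53 from GD8:15 to GD9:00, 0.77 from GD9:00 to GD9:12 and 0.81 from GD8:15 to GD9:12, beside 0.60, 0.62 and 0.77 over all tested probes. These are descriptions across genes, which are not replicates, and both arms share the code series. The sign was the same for 36, 38 and 45 of 54 members (66.7%, 70.4% and 83.3%). Over all tested probes it was the same for 68.2%, 65.8% and 74.5%. Of 8 members called in either arm from GD8:15 to GD9:00, Rpl31 and Rpl8 were called in both. From GD9:00 to GD9:12 it was 4 of 9, Rpl27a, Rpl9, Rps18 and Rpl11, and from GD8:15 to GD9:12 4 of 9, Rpl27a, Rpl9, Rps18 and Rps4l. These counts stand without the share of all probes called in both arms. The direct limma test of a difference between arms called 0 of 54 members and 0 of 7833 probes for each stage pair.

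**Figure D5:**
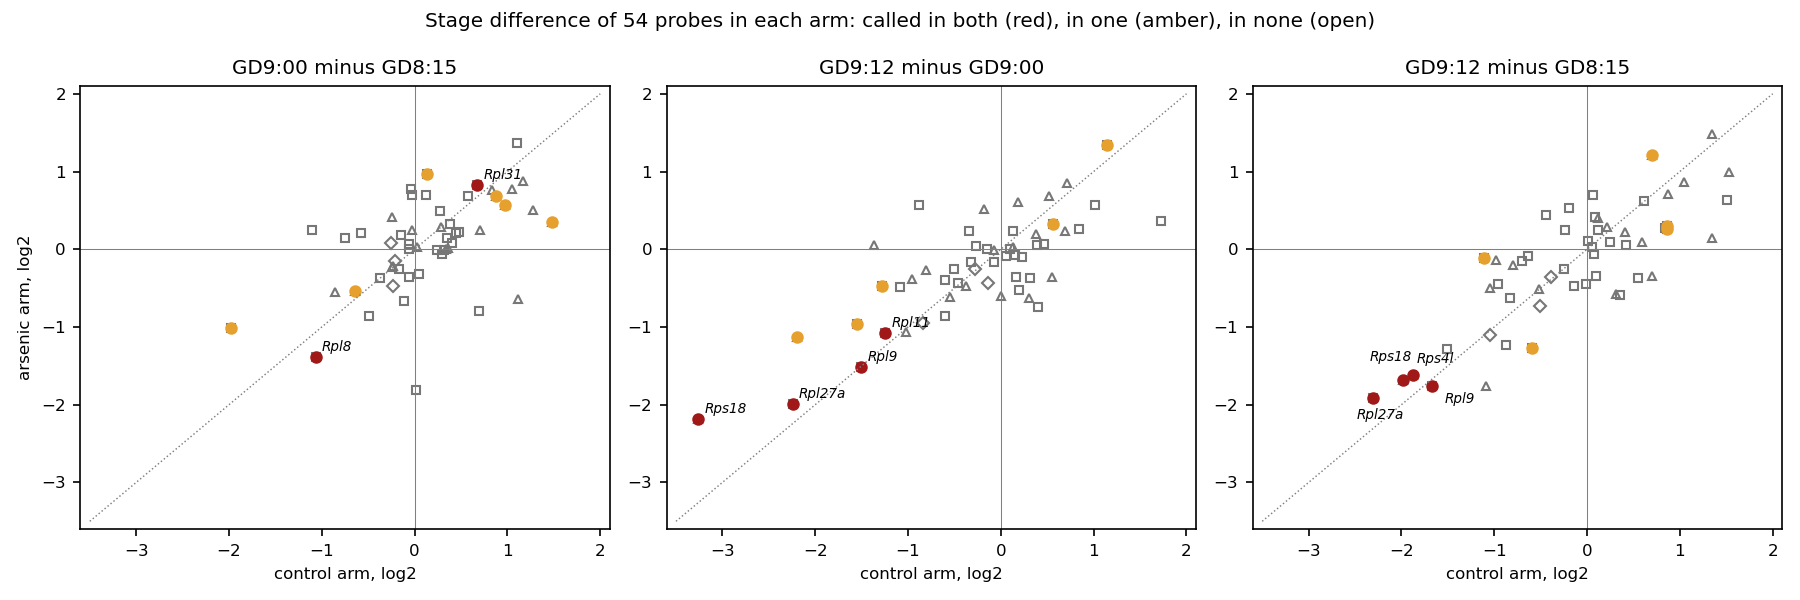
Stage difference in controls (horizontal) against that in arsenic arrays (vertical), both in log2 units, for 54 ribosomal protein probes and 3 stage pairs; red points were called in both arms, amber in one, open symbols in none, and the dotted line marks equal change. Rps18, Rpl27a and Rpl9 lie far from the origin, with changes between -3.26 and -1.50 from GD9:00 to GD9:12. Rpl27a and Rpl9 are near the line there, while Rps18 lies above it, at -3.26 in controls and -2.19 in arsenic arrays.

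Code series and scaling both bear on these stage results. With the code series as a block in the limma model, the changes from GD9:00 to GD9:12 were -3.12 and -2.19 for Rps18, -2.14 and -1.99 for Rpl27a, -1.69 and -1.51 for Rpl9, and -1.24 and -1.08 for Rpl11 in controls and arsenic arrays, and all 8 remained under an adjusted p of 0.05. All arsenic arrays of both stages belong to the largest code series, so the block could not move the arsenic differences. In controls it sets aside the 1 GD9:12 array outside that series. The calls against GD8:15 lost significance under that block, as with Rpl27a at -2.15 and -2.06 (limma adjusted p = 0.121 and 0.315). This held for each of the calls against GD8:15, and for them the stage and the code series can hardly be told apart. The scaling of the authors sets the array mean to 600 at GD8:15, 500 at GD9:00 and 1000 at GD9:12. Stage differences under it therefore include the difference between these means. With it in place of quantile normalisation, all probes together shifted by 0.79 in controls and 0.33 in arsenic arrays from GD9:00 to GD9:12. The split of called members became 26 higher and 2 lower in controls, and 22 higher and 0 lower in arsenic arrays. With centred arrays the split was 3 higher and 3 lower, and 5 higher and 0 lower. These splits, too, stand without the share of all probes called in the same setting.

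Every fall of Rpl27a, Rpl9, Rps18 and Rps4l named above kept its sign under both of these scalings, but many were not called. With the scaling of the authors, the changes from GD9:00 to GD9:12 in controls and arsenic arrays were -1.10 and -0.61 (limma adjusted p = 0.0236 and 0.35) for Rpl27a, -0.66 and -0.52 (limma adjusted p = 0.0688 and 0.288) for Rpl9 and -2.26 and -0.94 (limma adjusted p = 0.000758 and 0.189) for Rps18. With centred arrays they were -1.81 and -0.87 (limma adjusted p = 0.04 and 0.344), -1.37 and -0.78 (limma adjusted p = 0.0462 and 0.276) and -2.97 and -1.20 (limma adjusted p = 0.00579 and 0.241) in the same order. The control falls of Rpl27a and Rps18 were thus called with each scaling, and the arsenic falls of these 3 genes from GD9:00 were called with neither of the other scalings. Because the authors' array mean is higher at GD9:12 than at GD9:00, their scaling makes a fall smaller and a rise larger. This limits what a call lost or kept under it shows.

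Against GD8:15, the authors' scaling gave -1.24 and -0.82 (limma adjusted p = 0.0385 and 0.168) for Rpl27a, -0.996 and -1.06 (limma adjusted p = 0.0313 and 0.0129) for Rpl9 and -1.15 and -0.77 (limma adjusted p = 0.111 and 0.324) for Rps18. With centred arrays no change of these 3 genes against GD8:15 was called. Rps4l was called in both arms with each scaling, at -1.54 and -1.40 (limma adjusted p = 0.00156 and 0.0014) with that of the authors and -1.74 and -1.40 (limma adjusted p = 0.0112 and 0.0149) with centred arrays. Among the rises, those of Rpl29 in controls, of Rps27l in arsenic arrays and of Rpl31 in controls from GD8:15 to GD9:12 were called with each scaling. The rise of Rpl31 from GD8:15 to GD9:00 was called with each scaling in controls but not in arsenic arrays, at 0.61 with that of the authors (limma adjusted p = 0.193). The fall of Rpl8 to GD9:00 was called with the scaling of the authors but not with centred arrays, at -0.61 and -1.46 (limma adjusted p = 0.417 and 0.248), while its rise to GD9:12 in arsenic arrays was called with each. The rises to GD9:00 of Rps27l in controls and Rpl11 in arsenic arrays, at 0.72 and 0.93 with the scaling of the authors (limma adjusted p = 0.0643 and 0.113), were called neither there nor with centred arrays. Of the other control changes to GD9:00, Rps26 and Rps3a1 were called with the scaling of the authors only, and Rps23 and Rpl28 with both.

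Markers of neighbouring cell types moved between GD9:00 and GD9:12 as well. Of 10 tested heart and muscle markers, 1 was higher at GD9:12 in controls and 0 in arsenic arrays, with 1 and 4 called lower by limma and medians of -0.42 and -0.72. Blood and erythroid markers went the other way, with 5 of 5 higher in controls (3 called, median 0.90) and 3 of 5 in arsenic arrays (1 called, median 0.75). Of 10 surface ectoderm and endoderm markers 3 were higher in each arm, with 2 and 3 called lower and medians of -0.51 and -0.36. The part of these cell types in the falls of Rpl27a, Rpl9, Rps18 and Rpl11 was not tested.

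Genes that work with the ribosomal proteins were also called between stages. The background for GD9:12 against GD8:15 was that given above, 7.71% of all probes called in controls (3.77% higher, 3.94% lower) and 13.8% in arsenic arrays (7.23% and 6.59%). This comparison is also largely one between code series, and these genes are given with quantile normalisation and without the block. Of 30 ribosome biogenesis genes, 4 fell in controls between GD8:15 and GD9:12, namely Bysl (-1.35), which matures the small subunit, Imp4 (-1.27), a pre-rRNA processing factor, and the box H/ACA proteins Gar1 (-1.09) and Nhp2 (-1.08). In arsenic arrays 3 fell and 3 rose, with Gar1 (-1.31) and Bysl (-0.85) again among the falls, and Mphosph10 (1.38) and Bop1 (1.08), 2 further pre-rRNA processing factors, among the rises. Limma adjusted p for those named ran from 0.00157 to 0.0369.

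Among the 16 elongation and TOP genes, Eif3k, an initiation factor subunit, fell in both arms (-1.87 and -1.76; limma adjusted p = 0.0415 and 0.0256), and Eef1g, an elongation factor subunit, in arsenic arrays (-1.34; limma adjusted p = 0.0279). Of the 14 growth control genes, Eif4ebp1, the mTOR-regulated inhibitor of cap binding, fell by 2.01 and 2.97, and Rps6kb2, a kinase of ribosomal protein Rps6, fell by 1.07 and 1.54 in controls and arsenic arrays (limma adjusted p from 0.00035 to 0.0298). In arsenic arrays Rheb (2.13), which activates mTOR, and Ddit4 (0.81), which restrains it, rose (limma adjusted p = 0.0064 and 0.0128). Of the 50 mitochondrial ribosomal proteins, 3 rose and 3 fell in controls and 7 rose and 3 fell in arsenic arrays, with Mrpl37 lower (-1.51 and -1.26) and Mrpl13 higher (1.27 and 1.46) in both. In the p53 list only Mdm4 was called in controls (0.51, limma adjusted p = 0.0474) and no gene in arsenic arrays. From GD9:00 to GD9:12 in controls, 1 of 30 biogenesis genes was called higher and 7 lower. Of 16 elongation and TOP genes 0 and 6 were (median -0.69), of 50 mitochondrial ribosomal proteins 3 and 10. The growth control list had 1 and 1 of 14, the p53 list 0 and 2 of 8. All probes had 3.83% and 7.44%. In arsenic arrays these counts were 2 and 0, 0 and 2, 1 and 3, 0 and 3, 0 and 0, against 1.9% and 1.98%.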

How the data were processed

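RNA from the anterior neural tube was amplified linearly with T7 polymerase, labelled with biotin and hybridised to CodeLink one-colour arrays, per the labels' protocols. The authors deposited intensity values on a linear scale, scaled so that each array of a stage has the same mean. The software for this is not given in the sources used here. Values of 1 or 2 were taken as placeholders and set to missing. Deposited intensities were turned into log2 values and quantile normalised. Probes entered the test if each group had at least 2 values and the mean was above the lowest 25%, which left 7833 of 10500. A linear model with 6 group means was fitted in limma 3.58.1 (R 4.3.3), with eBayes and Benjamini-Hochberg adjustment over all tested probes, at a threshold of 0.05. The script was tested on simulated data. Figures used Python 3.11.15 and matplotlib 3.10.9.

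Gene names come from the platform's annotation, which can be old, and a value stands for its probe. Of all probes 9378 carry 1 symbol, 8 several and 1114 none, and 56 of the 57 member symbols match RefSeq. Replicate numbers follow accession order and only name arrays. The members and gene lists were chosen with earlier results of these data known. Members were named where they passed the test, or had the 5 lowest p-values in a direction, in an arsenic comparison or between GD8:15 and GD9:12. Those with the 5 widest and 5 narrowest spreads, the paralogs and the stalk proteins were also named. Members named for calls involving GD9:00, and pairs named for their correlation, were chosen after their values were seen. Alternatives were other scalings, no filter on dim probes, placeholders kept, dim runs of probes masked, another eBayes, fewer groups in the fit, the code series as a block, and each array left out. Fits within 1 code series, and pairwise correlations under other scalings, were added after seeing the data.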

Additional observations from a re-analysis of the deposited data

Results flagged for a closer look

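In a group of 4 arrays, a single value can stand apart from the other 3. Over all tested members with complete values, and their median, 219 such groups of log2 intensities were looked at. Of these 23 (10.5%) had an array whose gap to its nearest neighbour was wide for the range, where chance gives about 1 in 20. Members share arrays, so the groups are not independent. Among the GD8:15 controls, the first array read 15.50 for Rpl19 (others 15.44) and 15.32 for Rplp0 (others 13.51 to 13.79). The third read 10.51 for Rps15 (others 14.65 to 14.89), 8.11 for Rps3 (others 11.88 to 12.20) and 13.72 for Rplp2 (others 12.75 to 12.91). The fourth read 14.03 for Rps19 (others 12.40 to 12.61). Among the arsenic arrays at GD8:15, the third read 11.25 for Rplp2 (others 13.12 to 13.38), 14.31 for Rpl7 and 11.76 for Rps10.

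The GD9:00 controls held 9 of the 23. The first array was low for Rpl15 at 14.89 (others from 15.86), for Rpl37 at 13.31 and for Rpl38 at 9.17. The second was low for Rpl39l at 7.29, Rplp0 at 12.34, Rplp1 at 8.55, Rps19 at 10.29 and Rps27 at 12.64. The third was low for Rpl7 at 15.44 (others 15.64). At GD9:12 the second arsenic array was high for Rpl22l1 at 7.59, Rps24 at 9.72 and Rplp1 at 10.79 (others 8.68 to 8.74) and low for Rpl37a at 15.09, and the fourth was high for Rplp0 at 15.03. The stalk proteins made up 7 of the 23. Groups of 3 arrays were not looked at by this rule. On the second GD9:12 control, Rpl22l1 (7.37, others 7.10), Rps24 (9.74, others 8.31 and 8.72) and Rplp1 (10.11, others 8.35 and 8.93) also read high. Rpl37a read low there, at 15.35 (others 15.79 and 15.64). The rule for dim runs of probes masked 2 member values on the second GD9:00 control and 1 on the third GD8:15 control. Several genes read low on an array while others there did not, and no cause was tested.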

How the results depend on the processing

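No member was called for arsenic at any stage, on average or by stage under any alternative run. No paired analysis was possible because replicate numbers follow accession order and the labels carry none. The stage counts moved most with scaling. The counts that follow are of members only, without the share of all probes called in the same setting, and do not describe the class against the array. With the scaling of the authors, members called numbered 28 (from 8) in controls and 22 (from 5) in arsenic arrays for GD9:12 against GD9:00, and 21 (from 7) and 22 (from 6) for GD9:12 against GD8:15. Centring arrays on their medians gave 3 (from 7) in controls and 0 (from 3) in arsenic arrays for GD9:00 against GD8:15, and 13 in arsenic arrays for GD9:12 against GD8:15. Fitting the 2 groups alone gave 3 and 0 for GD9:00 against GD8:15 and 12 in controls for GD9:12 against GD8:15. A trended, robust eBayes gave 1 in arsenic arrays for GD9:00 against GD8:15. With the code series as a block, GD9:00 against GD8:15 gave 1 and 0, and GD9:12 against GD8:15 gave 1 and 0. The largest code series alone, added after seeing the data, gave 1 and 3 in controls for those pairs. The authors' array means of 600, 500 and 1000 in stage order enter the counts under their scaling. The part of these means in the shifts, and the cause of the other shifts, was not tested. With 1 array left out, counts ran from 0 to 7 and 0 to 2 for GD9:00 against GD8:15 in controls and arsenic arrays, and from 4 to 8 and 2 to 5 for GD9:12 against GD9:00. The range of the member level over arrays was 0.621, and 1.43 with the scaling of the authors or 2.07 with centred arrays.

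Of single-gene values, 579 of 590 kept direction and side of the threshold with 1 array left out, and 453 of 510 under other settings. Arsenic differences, none called, changed sign for Rpl22l1 at GD9:00 (0.35) and Rpl29 on average (0.0912) with the scaling of the authors. They did so for Rpl5 at GD9:00 (-0.144), Rpl35 on average (-0.104) and Rps26 on average (-0.198) with centred arrays, and for Rpl15 at GD9:00 without the first control (-1.98e-05 to 0.336 with 1 array left out). For Rps19 (-0.0767) and Rpl10 (0.00709) at GD9:12 they did so with the block, in the largest series alone and without the first control, with ranges of -0.0767 to 1.08 and -1.18 to 0.00709 with 1 array left out. Brightness limits the top probes, which quantile normalisation holds near its ceiling, and several of them share a deposited value on some arrays.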
